A study of Homo sapiens with 19 samples.

Results

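The elements described here are the 153 DNA elements whose names consist of KUUAT, 4 digits and an orientation, .fwd or .rev, with no substitution part. They were picked from 3422 element names by name alone, with no measured value used. The 153 names belong to 77 numbered loci, and 76 of these loci were present in both orientations. The letters KUUAT are not explained in the sources used here, so the elements are called by their names throughout. Of the 153 elements, 130 were listed in all 8 deposited tables and 127 were tested in all 8. A set of 7 was missing from set 1, namely both orientations of KUUAT0042 and KUUAT0049 and the .rev elements of KUUAT0031, KUUAT0099 and KUUAT0142. The authors listed 4 values of members without a test, all with few reads: KUUAT0056.fwd and KUUAT0093.rev in the set 2 pMYC promoter table, KUUAT0093.rev in the set 2 pMYC enhancer table and KUUAT0010.rev in the pAPOBEC3F enhancer table. No sequence or coordinate could be tied to these names in the sources used here, so the elements are shown by their values only.

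A promoter is a stretch of DNA at which transcription starts, and an enhancer is a stretch that raises transcription from a promoter elsewhere on the molecule. Many regulatory elements do both, because active enhancers recruit RNA polymerase and start transcripts of their own. A promoter usually works in a preferred direction, whereas an enhancer is classically defined as working in either orientation. Minimal promoters carry little more than the start site and its core motifs, so that RNA from them depends on the element beside them; they differ from each other in basal output and in how far an enhancer can raise them. These are general properties and not results of the data below.

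QUASARR-seq reads both activities from 1 plasmid, which carries the element between a pair of barcodes. RNA over DNA of the barcode called paBC is the promoter read-out, and RNA over DNA of the barcode called eaBC is the enhancer read-out. All plasmids were built in the vector pDEST-QUASARR-luc-gfp and were electroporated into K-562, an established human chronic myelogenous leukaemia line. Per the labels, 20 µg of plasmid went into each electroporation, 5 electroporations were pooled per technical replicate, with 2 of these to each biological replicate, and the harvest was at 6 h. Each pool of cells was then split for RNA and DNA. Set 1 (CNPL, TRE202 and MRE elements) had the minimal promoter pMYC. Set 2 (CNPL, TRE202, TRE5 and TRE6 elements) was 1 library pool with the minimal promoters pGAPDH, pMYC and pAPOBEC3F. Each set had 2 RNA and 2 DNA libraries per read-out, 16 in all. A further 3 index libraries of untransfected plasmid were not analysed here. Which kind the replicates numbered 1 and 2 are is not stated, and p-values cover just the spread between these libraries, which may be technical. In limma that spread is shared over the elements of a table, so a p-value is not set by an element's own 2 replicates alone. Sizes of p-values are not comparable between tables. Elements outside a chromosome, on a plasmid that is present for hours, are measured without their native chromatin and neighbours.

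Read depth differed between tables more than between replicates. A read here is 1 step of the deposited signal, an assumption on which every read number below rests. The RNA columns summed to between 200722 reads (pAPOBEC3F, enhancer) and 10167588 reads (pGAPDH, promoter) over all elements; in set 2 the columns of the 3 minimal promoters are parts of the same libraries. The members had a median of 7170 DNA reads and 2240 RNA reads per library in the set 1 promoter table, against 225 and 56 in the pAPOBEC3F enhancer table. The correlation of the members' log2 ratio between replicates was 0.991 in the set 1 promoter table and 0.730 in the pAPOBEC3F enhancer table. Its order was not that of depth throughout. With pGAPDH as enhancers it was 0.816 at medians of 370 DNA and 914 RNA reads. With pMYC of set 2 as enhancers it was 0.842 at 265 and 109. The part of depth in these values was not tested. Reads come from PCR with no molecular identifiers, so they do not count single molecules.

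In the promoter read-out of set 1, KUUAT elements ranged from a clear loss of RNA relative to DNA to an 11.1-fold gain. In the authors' deposited table, at an adjusted limma p under 0.05, 80 of 146 members were higher in RNA than in DNA, beside 56.1% of all elements. The number of lower members in the authors' deposited table was 24, beside 26.0% of all elements. The members' share of higher calls, 54.8%, was close to that of all elements. The median log2 fold change in the authors' deposited table was 0.23 for the members and 0.39 for all elements. A log2 fold change of at least 1 in the authors' deposited table was reached by 38 members, 26.0%, against 37.4% of all elements. Zero is where the authors' scaling puts it: with the ratios centred on the median of all elements, 49 members were higher and 73 lower. By construction, such centring places as many of all elements above zero as below. Centred calls were counted for the members only, here and in the other tables, so no background share stands beside them. Without RNA replicate 1 the lower calls rose from 24 to 43.

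The 3 highest members of that table came from the loci KUUAT0015 and KUUAT0043. The log2 ratio of RNA over DNA, with 0.5 reads added, was 3.56 in replicate 1 and 3.39 in replicate 2 for KUUAT0015.rev, a mean of 3.47 ± 0.12 (SD, n = 2). KUUAT0043.rev had 3.53 and 3.28, a mean of 3.40 ± 0.18 (SD, n = 2). KUUAT0015.fwd had 3.50 and 3.20, a mean of 3.35 ± 0.21 (SD, n = 2). The replicates of these 3 elements overlap, so their order within the group is not settled. They stood at the 93.2nd, 92.1st and 91.5th percentile of all tested elements of the table, whose log2 fold changes reached 7.05 in the authors' deposited table. The lowest members were KUUAT0128.rev, at -0.80 and -0.96, and KUUAT0111.rev, at -0.87 in both replicates. In the authors' deposited table their adjusted p was 3.3e-06 and 1.2e-06.

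In the enhancer read-out of set 1 the members spanned a narrower range. Of 146 members, 79 were higher in the authors' deposited table (all elements, 54.6%) and 9 were lower (all elements, 11.8%). The median was 0.15 against 0.23 over all elements, and 13 members reached a log2 fold change of at least 1, or 8.90% against 25.7% of all elements. Centred on the median of all elements, 45 members were higher and 63 lower. The lower calls moved with single libraries, to 4 without DNA replicate 1, 3 without DNA replicate 2, 22 without RNA replicate 1 and 17 without RNA replicate 2. KUUAT0015 was again at the top, with 2.60 and 2.65 for KUUAT0015.rev and 2.49 and 2.37 for KUUAT0015.fwd. KUUAT0156.fwd followed at 1.51 and 1.59, below both KUUAT0015 elements in each replicate. KUUAT0043, level with KUUAT0015 as a promoter, had enhancer values of 1.30 and 1.14 (KUUAT0043.rev) and 1.20 and 1.10 (KUUAT0043.fwd). At the low end KUUAT0109.fwd had -0.29 and -0.46 and KUUAT0124.fwd had -0.29 and -0.34. Their adjusted p in the authors' deposited table was 0.00031 and 2.8e-05.

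With the same minimal promoter in set 2, a separate plasmid pool, the promoter read-out was read at lower depth and had the same loci at the top. Of 137 members, 67 were higher in the authors' deposited table (all elements, 52.3%) and 34 lower (all elements, 27.8%), with a median of 0.16 against 0.24. Centred on the median of all elements, the counts were 51 higher and 57 lower. KUUAT0043.rev was highest at 2.78 and 2.95, followed by KUUAT0015.rev at 2.69 and 2.64 and KUUAT0043.fwd at 2.67 and 2.42. The lowest was KUUAT0124.fwd, at -2.34 and -1.79, which rested on 5 and 6 RNA reads against 107 and 79 DNA reads. KUUAT0057.fwd had -1.50 and -1.15, with 26 and 31 RNA reads. Both were called lower in the authors' deposited table, with adjusted p of 1.2e-12 and 4.7e-08.

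The set 2 pMYC enhancer read-out was led by KUUAT0049, which set 1 did not hold. KUUAT0049.fwd had log2 ratios of 2.72 and 2.82 and KUUAT0049.rev had 2.54 and 2.40. KUUAT0015.rev came next with 1.85 and 2.06, below KUUAT0049 in both replicates. Here 51 of 137 members were higher in the authors' deposited table (all elements, 40.4%) and 4 lower (all elements, 7.38%), with medians of 0.18 and 0.19. Centred on the median of all elements, 28 members were higher and 28 lower. The lower calls numbered 1 without DNA replicate 2, 16 without RNA replicate 1 and 9 without RNA replicate 2. Without DNA replicate 1 the own limma fit called 0 lower (3 at an unadjusted p under 0.05). The higher calls fell from 51 to 33 without DNA replicate 2. At the low end KUUAT0130.fwd had -0.79 and -0.87 on 16 and 19 RNA reads, and KUUAT0142.fwd had -0.30 and -0.43 on 92 and 93 RNA reads.

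With pGAPDH in the promoter read-out, the members' calls were close to those of all elements of the table, with more lower than higher. Of 152 members, 50 were higher in the authors' deposited table (all elements, 36.3%) and 72 lower (all elements, 46.6%), and the medians were -0.09 and -0.07. After centring, 58 members were higher and 61 lower. A log2 fold change of at least 1 was reached by 2 members in the authors' deposited table, 1.32% against 6.47% of all elements. KUUAT0015.fwd had 1.35 and 1.30, and KUUAT0043.rev had 1.19 and 1.11. KUUAT0043.fwd followed with 0.91 and 0.96, below both of them in each replicate. At the other end KUUAT0031.rev had -1.42 and -1.44, and KUUAT0038.rev had -1.35 and -1.46. These low values were measured on 307 to 920 RNA reads per library, unlike the low values of the pMYC table, and their adjusted p in the authors' deposited table was 3.9e-10 and 5.5e-12.

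The pGAPDH enhancer read-out held the members within a narrow band, from -0.83 to 1.40 in the authors' deposited table. Calls in the authors' deposited table were 33 of 152 higher (all elements, 22.2%) and 23 lower (all elements, 18.5%), with medians of 0.03 and -0.01. Without RNA replicate 1 the counts were 18 and 15, and without RNA replicate 2 the lower calls were 11. KUUAT0049 led again, with 1.44 and 1.36 for KUUAT0049.rev and 1.36 and 1.29 for KUUAT0049.fwd. KUUAT0015.rev followed at 1.00 and 0.87. KUUAT0124.fwd was lowest at -0.81 and -0.86, a mean of -0.83 ± 0.041 (SD, n = 2), and KUUAT0142.rev had -0.29 and -0.67. The replicates of KUUAT0124.fwd lie close together, while those of KUUAT0142.rev lie far apart.

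With pAPOBEC3F the promoter read-out had the widest middle range of the set 2 tables. Of 147 members, 66 were higher in the authors' deposited table (all elements, 50.7%) and 41 lower (all elements, 30.6%), with medians of 0.09 and 0.23. Centred on the median of all elements, 53 were higher and 68 lower. Without DNA replicate 1 the lower calls fell to 27, and without DNA replicate 2 to 23. KUUAT0043.rev had 3.79 and 3.61, KUUAT0015.rev 3.54 and 3.42 and KUUAT0043.fwd 3.16 and 2.93, an order that held in both replicates. The lowest member was KUUAT0109.fwd, at -1.88 and -1.62 on 17 and 21 RNA reads. KUUAT0084.rev had -1.54 and -1.17.

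The pAPOBEC3F enhancer read-out was the shallowest, and only 24 of 146 members were called higher in the authors' deposited table (all elements, 30.1%), with 8 lower (all elements, 7.38%). This was the largest gap between the members' share of higher calls and that of all elements, 16.4% against 30.1%, in the 8 tables; the median was 0.03 against 0.09. Centred on the median of all elements, the counts were 19 higher and 12 lower. The higher calls were 13 without DNA replicate 1, 46 without RNA replicate 1 and 41 without RNA replicate 2. The lower calls were 19 without RNA replicate 1 and 24 without RNA replicate 2, while without DNA replicate 1 and without DNA replicate 2 the own limma fit called 0 (2 at an unadjusted p under 0.05 in each). KUUAT0049.fwd had a mean of 3.01 and KUUAT0049.rev had 2.74 and 2.47. KUUAT0042.fwd followed with 1.98 and 1.54. KUUAT0142.fwd was low at -0.65 and -1.29 on 18 and 14 RNA reads. The lowest value, that of KUUAT0130.rev, came from 1 and 0 RNA reads against 19 and 15 DNA reads, and no fold is given for it.

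A few members were called higher in every table that tested them: KUUAT0005.rev, KUUAT0015.fwd, KUUAT0015.rev, KUUAT0066.fwd, KUUAT0107.rev, KUUAT0156.fwd and KUUAT0156.rev in 8 tables, and KUUAT0049.fwd and KUUAT0049.rev in the 6 tables of set 2. The members higher in 8 tables were 7 of the 127 tested in all 8. The share of all elements higher in each of their tables was not computed, so no background stands beside this count. The 3 minimal promoters of set 2 were read from the same libraries, so the calls of a member are not independent of each other. After centring on the all-element median, 6 of these 9 kept the higher call in each table by the own limma fit. KUUAT0066.fwd kept it in 4 of 8, with -0.025 in the promoter tables of set 1 and pAPOBEC3F. KUUAT0107.rev kept it in 7, with -0.020 in the set 1 promoter table, and KUUAT0005.rev in 7. The members differ in size of response. KUUAT0156.rev had mean promoter log2 ratios of 2.77 ± 0.12 in set 1, 2.19 ± 0.078 for set 2 pMYC, 0.74 ± 0.019 for pGAPDH and 2.91 ± 0.038 for pAPOBEC3F (SD, n = 2 each). KUUAT0107.rev was called with much smaller values, 0.37 ± 0.049, 0.82 ± 0.039, 0.51 and 0.42 ± 0.033 in the same order (SD, n = 2 each; the pGAPDH replicates were 0.51 and 0.51). KUUAT0066.fwd had 0.36 ± 0.11, 0.64 ± 0.088, 0.42 ± 0.019 and 0.21 ± 0.021 (SD, n = 2 each). For KUUAT0107.rev and KUUAT0066.fwd the value under pMYC of set 2 was the highest of the 4, and for KUUAT0156.rev that under pAPOBEC3F. The tables were scaled separately, and this order depends in part on their zero points. After centring, KUUAT0107.rev had 0.59 with pGAPDH and 0.58 with pMYC of set 2, and KUUAT0066.fwd had 0.50 and 0.40. KUUAT0156.rev remained highest with pAPOBEC3F, at 2.67.

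Orientation was compared within each table, as the log2 ratio of the .fwd element minus that of the .rev element of a locus, since both were measured in the same libraries. In each promoter table most of the KUUAT loci tested differed by orientation. With an own limma fit over all loci of the set 1 promoter table, 53 of 72 KUUAT loci passed an adjusted p of 0.05 (all loci, 73.8%), 37 with .fwd higher and 16 with .rev higher. With pMYC in set 2, 40 of 61 passed (all loci, 63.0%), 25 and 15 in the 2 directions. With pGAPDH it was 59 of 75 (all loci, 72.1%), 35 and 24, and with pAPOBEC3F 41 of 71 (all loci, 57.3%), 25 and 16. The members' shares, 73.6%, 65.6%, 78.7% and 57.7% in the same order, were close to those of all loci. Over all loci .fwd was also more often the higher one, at 363 loci against 162 in set 1. In set 2 it was 438 against 246 with pMYC, 567 against 464 with pGAPDH and 425 against 258 with pAPOBEC3F. Without DNA replicate 1 or 2 the counts fell to 25 and 24 for set 2 pMYC and to 25 and 24 for pAPOBEC3F.

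As enhancers, 24 of 72 KUUAT loci differed by orientation in set 1 (all loci, 29.6%), of which 18 had .rev higher. In set 2, 7 of 60 differed with pMYC (all loci, 13.5%), all 7 with .rev higher. With pGAPDH 10 of 75 differed (all loci, 17.1%), 6 with .rev higher, and with pAPOBEC3F 2 of 70 (all loci, 5.02%), 2 with .rev higher. Over all loci .rev was also more often the higher one, at 140 of 210 called loci in set 1. In set 2 it was 94 of 145 with pMYC, 191 of 243 with pGAPDH and 35 of 59 with pAPOBEC3F. The median difference of .fwd minus .rev was positive in each promoter table, 0.21 in set 1, and negative in each enhancer table, -0.08 in set 1. All loci together showed the same signs, 0.22 and -0.05 in set 1. These enhancer counts moved with single libraries. In set 1 they were 9 and 8 without DNA replicate 1 or 2. For set 2 pMYC they were 1 without DNA replicate 2, 13 and 17 without RNA replicate 1 or 2, 0 without DNA replicate 1 (10 at an unadjusted p under 0.05, own limma fit) and 4 with the replicate number as a block. For pGAPDH the own limma fit called 0 without RNA replicate 1 or 2 (13 and 11 at an unadjusted p under 0.05). For pAPOBEC3F it called 24 and 23 without RNA replicate 1 or 2, and 0 without DNA replicate 1 or 2 (5 and 3 at an unadjusted p under 0.05).

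In set 1 the 2 read-outs measured orientation with nearly the same precision. The median standard error of the orientation difference over 72 KUUAT loci was 0.062 in the promoter read-out and 0.064 in the enhancer read-out, while the median size of the difference was 0.34 and 0.13. At 56 of these 72 loci the promoter difference was the larger in size. In set 2 the standard errors of the enhancer read-out were wider, 0.19 against 0.092 with pMYC, 0.084 against 0.057 with pGAPDH and 0.21 against 0.12 with pAPOBEC3F. The promoter difference was the larger at 40 of 60, 57 of 75 and 41 of 70 loci. The difference between the read-outs was not tested.

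KUUAT0036 showed the largest orientation difference among KUUAT loci of the set 1 promoter table, where differences over all loci reached 3.93 in size. KUUAT0036.rev had 3.20 and 3.10 and KUUAT0036.fwd 1.63 and 1.52, a .fwd minus .rev difference of -1.57 (SE 0.037, adjusted limma p 1.3e-07). With pAPOBEC3F the values were 2.88 and 2.88 against 1.31 and 1.21, a difference of -1.62 (SE 0.085, adjusted limma p 2.9e-07). With pGAPDH the locus changed sign by orientation, 0.60 and 0.57 for .rev and -0.40 and -0.28 for .fwd, a difference of -0.93 (SE 0.061, adjusted limma p 8.6e-07). In the enhancer read-out of set 1 the orientation difference of KUUAT0036 did not pass the test, with 1.02 and 0.99 for .rev against 0.81 and 0.91 for .fwd, a difference of -0.14 (SE 0.051, adjusted limma p 0.066).

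KUUAT0017 leaned the other way. KUUAT0017.fwd had 1.74 and 1.64 in the set 1 promoter table and KUUAT0017.rev 0.63 and 0.46, a difference of 1.14 (SE 0.046, adjusted limma p 1.3e-06). The difference was 1.06 (SE 0.10) for set 2 pMYC, 0.76 (SE 0.047) for pGAPDH and 1.29 (SE 0.091) for pAPOBEC3F, each at an adjusted limma p of 3.7e-05 or less. With pGAPDH both orientations lay below zero, at -0.30 in both replicates for .fwd and -1.07 and -1.06 for .rev. Enhancer differences of KUUAT0017 were -0.17, -0.10, -0.26 and -0.03 in the same order, and only that with pGAPDH passed (adjusted limma p 0.042).

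KUUAT0111 gave a steady difference that came from a low .rev element. KUUAT0111.rev had promoter means of -0.87 in set 1, -1.06 ± 0.041 for set 2 pMYC, -0.89 ± 0.096 for pGAPDH and -0.98 ± 0.11 for pAPOBEC3F (SD, n = 2 each). KUUAT0111.fwd had means of 0.01, -0.15, 0.04 and -0.16, and none of these 4 was called in the authors' deposited tables. The orientation difference was 0.88 (SE 0.054), 0.91 (SE 0.086), 0.93 (SE 0.041) and 0.82 (SE 0.12), with adjusted limma p between 9.2e-08 and 0.00025. Its enhancer differences were 0.01, -0.04, 0.01 and 0.06, none passing the test, with the lowest adjusted limma p at 0.84.

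KUUAT0119 and KUUAT0066 were the most orientation-dependent KUUAT loci of the set 2 pMYC and pGAPDH promoter tables, in opposite directions. Over all loci the differences reached 6.19 and 5.80 in size in these tables. KUUAT0119.fwd had -1.16 and -1.01 with pGAPDH against 0.31 and 0.31 for KUUAT0119.rev, a difference of -1.40 (SE 0.069, adjusted limma p 1.5e-07). With pAPOBEC3F the difference was -0.68 (SE 0.17, adjusted limma p 0.0074). KUUAT0066.fwd had 0.41 and 0.44 with pGAPDH against -0.91 and -0.95 for KUUAT0066.rev, a difference of 1.35 (SE 0.068, adjusted limma p 1.5e-07). With pAPOBEC3F it was 0.13 (SE 0.16, adjusted limma p 0.54), with .fwd at 0.20 and 0.23 and .rev at 0.01 and 0.16. In the set 1 enhancer table KUUAT0066 had the largest difference among KUUAT loci, 0.52 (SE 0.095, adjusted limma p 0.0043).

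KUUAT0021 differed by orientation in both read-outs of pMYC. In the set 1 enhancer table KUUAT0021.rev had 1.07 and 0.98 and KUUAT0021.fwd 0.49 and 0.53, a difference of -0.51 (SE 0.055, adjusted limma p 0.00026). In the set 2 pMYC enhancer table the values were 0.99 and 0.99 against 0.07 and 0.31, a difference of -0.80 (SE 0.21, adjusted limma p 0.0056). Its promoter difference had the same side with pMYC, -0.56 (SE 0.036) in set 1 and -0.31 (SE 0.092) in set 2. With pGAPDH the promoter difference was 0.38 (SE 0.042, adjusted limma p 2.2e-05), on the other side. With pAPOBEC3F the promoter difference was -0.78 (SE 0.066) and the enhancer difference 0.14 (SE 0.12, adjusted limma p 0.55).

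KUUAT0075 had opposite orientation calls in its 2 read-outs with pAPOBEC3F. As a promoter KUUAT0075.fwd had 2.60 and 2.79 and KUUAT0075.rev 2.10 and 2.29, a difference of 0.50 (SE 0.080, adjusted limma p 0.00051). As an enhancer KUUAT0075.fwd had 0.18 and 0.26 and KUUAT0075.rev 1.21 and 1.48, a difference of -1.12 (SE 0.17, adjusted limma p 0.021). Neither orientation overlaps the other in either read-out. Called orientation differences of opposite direction in the 2 read-outs were found at 7 of 17 loci called in both for set 1, at 1 of 5 for set 2 pMYC, at 3 of 10 for pGAPDH and at 1 of 2 for pAPOBEC3F. Over all loci it was 47 of 161, 18 of 114, 51 of 192 and 9 of 54 in the same order, and the difference from the members was not tested.

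KUUAT0124 also turned with the read-out in set 1 and with pGAPDH. In set 1 KUUAT0124.fwd had promoter values of -0.01 and -0.10 against -0.61 and -0.77 for KUUAT0124.rev, a difference of 0.63 (SE 0.065, adjusted limma p 0.00016). Its enhancer values were -0.29 and -0.34 against 0.07 and -0.19, a difference of -0.25 (SE 0.078, adjusted limma p 0.044). With pGAPDH the enhancer values were -0.81 and -0.86 for .fwd against -0.23 and -0.29 for .rev, a difference of -0.57 (SE 0.11, adjusted limma p 0.0052), while the promoter difference was 0.18 (SE 0.067, adjusted limma p 0.036). The promoter difference was called in 2 of 4 tables. With pMYC of set 2 and with pAPOBEC3F neither read-out had a called difference at this locus. In the set 2 pMYC promoter table .fwd was the lowest member, on few RNA reads, and so lay below .rev, the reverse of set 1.

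Promoter and enhancer values of the same element were measured in separate libraries made from the same pools of cells. Over the members Pearson's r between the 2 read-outs was 0.850 in set 1 (Spearman's rho 0.773, n = 146 elements), 0.779 for set 2 pMYC (rho 0.778, n = 136), 0.629 for pAPOBEC3F (rho 0.636, n = 146) and 0.547 for pGAPDH (rho 0.628, n = 152). Over all elements r was 0.854, 0.836, 0.765 and 0.616 in the same order. The points are elements, which share libraries and, within a locus, a sequence, so these values describe the tables and carry no p. Depth differs between the tables, as does the spread of the values, and their part in the order of r was not tested.

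Most members called higher as enhancers were also called higher as promoters; of those called higher as promoters, most were also higher as enhancers with pMYC, but not with pGAPDH or pAPOBEC3F. In the authors' deposited tables of set 1, 62 members were higher in both read-outs, 77.5% of the 80 higher promoters and 78.5% of the 79 higher enhancers. For set 2 pMYC 47 were higher in both, 70.1% of the promoter calls and 92.2% of the enhancer calls. For pGAPDH it was 23, 46.0% and 69.7%. For pAPOBEC3F it was 23, 34.8% of the 66 promoter calls and 95.8% of the 24 enhancer calls. Over all elements of the authors' deposited tables, the shares of promoter calls were 88.1%, 71.7%, 50.7% and 56.6% in the same order, and those of enhancer calls 90.4%, 92.7%, 82.7% and 95.3%. The enhancer tables had fewer reads, so a missing enhancer call is not a measured absence.

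KUUAT0049.fwd and KUUAT0042.fwd stood higher as enhancers than as promoters. As an enhancer, KUUAT0049.fwd was at the 99.0th percentile of all tested elements with pMYC, the 99.3rd with pGAPDH and the 99.3rd with pAPOBEC3F. As a promoter it was at the 85.0th, 74.1st and 82.0th. Its promoter log2 ratio with pGAPDH was 0.27 and 0.24, and its enhancer ratio 1.36 and 1.29. After centring on the all-element median the values were 0.33 and 1.33. The read-outs were scaled separately, and the difference between them was not tested. KUUAT0042.fwd was at the 93.7th, 94.9th and 95.3rd percentile as an enhancer and at the 79.2nd, 41.7th and 73.4th as a promoter. In the authors' deposited tables KUUAT0049.rev had close log2 fold changes as a promoter and an enhancer, 2.48 and 2.47 with pMYC and 2.68 and 2.60 with pAPOBEC3F. With pGAPDH it had 0.88 and 1.40. KUUAT0042.rev had -0.03 and 0.53 with pGAPDH and 0.64 and 1.58 with pAPOBEC3F.

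KUUAT0043 and KUUAT0036.rev had the opposite profile. KUUAT0043.rev was at the 92.1st percentile as a promoter and the 78.7th as an enhancer in set 1, at the 93.5th and 86.5th for set 2 pMYC, the 95.4th and 77.0th for pGAPDH and the 94.3rd and 81.1st for pAPOBEC3F. Its pGAPDH enhancer values, 0.26 and 0.12, were not called (adjusted p 0.29 in the authors' deposited table). KUUAT0036.rev had promoter values of 2.88 and 2.88 with pAPOBEC3F and enhancer values of 0.16 and 0.41, the latter not called in the authors' deposited table (adjusted p 0.18). With pMYC it was called higher as an enhancer in both sets. Its log2 fold change there was 1.005 in set 1 and 0.754 in set 2 (adjusted limma p 2.1e-24 and 0.037, authors' deposited tables).

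For set 2 the members tested with all 3 minimal promoters were set side by side, without a test, because the tables share libraries and were scaled separately. Of 133 such members in the promoter read-out, the authors' deposited tables had 66 higher and 31 lower with pMYC, 61 and 36 with pAPOBEC3F and 46 and 61 with pGAPDH. The interquartile range of the log2 fold change was 0.94, 1.24 and 0.53. In the enhancer read-out, with 132 such members, the counts were 51 and 4, 23 and 8, and 31 and 19, and the interquartile ranges 0.44, 0.40 and 0.22. In both read-outs pGAPDH had the narrowest spread of the 3. The order was the same over all elements tested with the 3 minimal promoters, at 1.40, 1.87 and 0.67 for 2237 promoter values and 0.71, 0.67 and 0.30 for 2236 enhancer values. Of those elements, 52.8%, 50.2% and 38.4% were higher and 27.5%, 30.5% and 45.8% lower as promoters in the authors' deposited tables. As enhancers 40.8%, 29.5% and 23.5% were higher and 7.38%, 7.74% and 19.6% lower.

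Some members held different ranks with pGAPDH. KUUAT0012.rev was at the 76.7th percentile of the pMYC promoter table (1.37 and 1.22) and at the 32.3rd of the pGAPDH promoter table (-0.21 and -0.44). KUUAT0067.fwd was at the 74.7th (1.23 and 1.12) and the 30.7th (-0.31 and -0.42). Both were called higher with pMYC and lower with pGAPDH in the authors' deposited tables. KUUAT0019.fwd was at the 69.3rd percentile with pAPOBEC3F (1.37 and 1.15) and the 13.6th with pGAPDH (-0.78 and -0.62). KUUAT0032.rev was at the 57.8th (0.47 and 0.66) and at the 2.89th (-1.18 and -1.26). In each of these the replicates lie on the same side of zero within a table and on opposite sides between the tables.

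Other members ranked higher with pGAPDH. KUUAT0119.rev was at the 77.2nd percentile with pGAPDH (0.31 in both replicates) and at the 23.4th with pAPOBEC3F (-0.19 and -0.58). KUUAT0096.rev was at the 72.0th with pGAPDH (0.24 and 0.20) and at the 30.6th with pAPOBEC3F (-0.28 and -0.23). KUUAT0139.fwd was at the 71.7th with pGAPDH (0.18 and 0.25) and at the 35.5th with pMYC (-0.23 and 0.09), where its replicates fall on both sides of zero.

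Among enhancer values KUUAT0075.rev shifted most. It was at the 91.8th percentile with pAPOBEC3F (1.21 and 1.48), the 79.5th with pMYC (0.73 and 0.85) and the 9.0th with pGAPDH (-0.39 and -0.26). In the authors' deposited tables it was higher in the first 2 and lower with pGAPDH (adjusted p 2.8e-25, 3.3e-16 and 0.047). The moderated t behind the first 2 was 10.7 and 10.6, so the sizes of these p-values are not comparable between tables. KUUAT0021.rev was at the 84.0th percentile with pMYC (0.99 and 0.99) and the 39.4th with pGAPDH (0.01 and -0.13). KUUAT0093.fwd was at the 92.5th percentile with pGAPDH (0.52 and 0.47) and the 35.6th with pMYC (-0.01 and 0.06).

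The minimal promoter pMYC was measured in both sets, in different plasmid pools and libraries. In the promoter read-out the 132 members shared by the 2 tables had an r of 0.917 (rho 0.870) between sets, against 0.969 over the 1137 shared elements of any name. By the authors' deposited tables, 71 were higher in set 1 and 64 in set 2, and 56 were higher in both, 78.9% of the first and 87.5% of the second. Lower calls numbered 22 and 32, with 18 in both, 81.8% and 56.2%. Over the 1137 shared elements the shares were 86.2% and 93.5% for higher calls and 82.2% and 75.1% for lower calls. Opposite calls in the 2 sets were found for KUUAT0033.rev and KUUAT0044.rev as promoters and KUUAT0020.fwd as an enhancer, beside 12 and 7 elements of any name. In the enhancer read-out r was 0.776 (rho 0.701, n = 132), against 0.901 over 1139 shared elements, and 42 members were higher in both, out of 70 in set 1 and 48 in set 2 (all shared elements, 396 of 564 and 424). Lower enhancer calls in both sets were 2, of 9 and 4 (all shared elements, 48 of 154 and 99).

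For 2 of the members that differed most in rank between sets, the set 2 value rested on few RNA reads. KUUAT0124.fwd was at the 33.5th percentile of the set 1 promoter table, with -0.01 and -0.10 on 1299 and 1385 RNA reads, and at the 0.0781st of the set 2 table, with -2.34 and -1.79 on 5 and 6 RNA reads. KUUAT0130.fwd was at the 49.5th percentile of the set 1 enhancer table (0.16 and 0.28) and the 1.37th of the set 2 table (-0.79 and -0.87 on 16 and 19 RNA reads). KUUAT0148.rev had -0.09 and -0.14 in the set 1 promoter table and 0.42 and 0.41 in that of set 2, the 30.6th and 57.1st percentile.

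KUUAT elements were set beside element groups with similar names. In the authors' deposited table of the set 1 promoter read-out, 54.8% of KUUAT elements were higher, against 82.6% of 144 KUUAE, 76.2% of 130 KUUUT and 95.0% of 119 KSUAT elements. Median log2 fold changes in the authors' deposited table were 0.23, 0.94, 0.79 and 2.68. In the set 1 enhancer read-out the shares were 54.1%, 80.6%, 73.8% and 92.4%. With pGAPDH the promoter shares were 32.9%, 53.3%, 37.6% and 69.0%, and the enhancer shares 21.7%, 41.3%, 24.2% and 34.1%. In the pAPOBEC3F enhancer read-out they were 16.4%, 47.5%, 35.2% and 66.4%. The differences between these groups were not tested, and in each table KUUAT had the lowest of the 4 shares. KUUAT elements had fewer DNA reads than KUUAE elements, a median of 7170 against 9028 per library in the set 1 promoter table, and more than KSUAT elements, at 4594.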

How the data were processed

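Barcodes were read from RNA and DNA of K-562 cells after electroporation of plasmid libraries. The tools named in the submitters' processing notes are fastp, edgeR and limma, and the build is hg38; the aligner and the barcode matching are not given in the sources used here. The deposited tables hold 4 columns of signal, DNA and RNA of replicates 1 and 2, whose scaling no header names. All deposited signal of a column (100% of values, tolerance 0.02) came in multiples of a single step, which was taken as 1 read. Per the file headers, limma gave the deposited log2 fold change between RNA and DNA. The p-values, raw and adjusted, are also the authors'. The score columns deposited by the authors (moderated t, log odds) were not used for calls.

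Calls at the authors' adjusted p under 0.05 were counted for the members beside all elements of a table. Per replicate, log2 of RNA over DNA was computed with 0.5 reads added; its mean lay within 0.0213 of the deposited log2 fold change for every tested member. Orientation was tested by limma-trend on log2 .fwd minus log2 .rev, RNA against DNA, over all loci with at least 10 reads of both elements in each DNA library, with Benjamini-Hochberg adjustment. Percentile ranks are among all tested elements of a table; tables were scaled separately, so values are tested only within a table. R 4.3.3 with limma 3.58.1 and Python 3.11.15 with numpy 2.4.6, pandas 2.3.3 and scipy 1.17.1 were used, and the fits were checked on simulated data.

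Named elements are, per table, the 3 highest and 2 lowest called members with at least 10 reads in each DNA library and replicates on the same side of 0; members higher in every table; members called in opposite directions in the read-outs; the 2 loci per table with the largest called orientation difference; and the members with the largest rank shifts among those with at least 50 reads in each DNA library. Others, among them KUUAT0042 and KUUAT0043 in comparisons of read-outs, KUUAT0111 for orientation and KUUAT0036.rev as an enhancer, were chosen after their values were seen. The members and lists were chosen with earlier results of these data known. RNA and DNA of a replicate number come from the same pool of cells, per the labels; the deviations of samples with the same number correlated between -0.105 and 0.014. Relations between the minimal promoters of set 2 were left out, as those tables share libraries.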

Additional observations from a re-analysis of the deposited data

Results flagged for a closer look

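Some members were called in opposite directions in the 2 read-outs of the same set and minimal promoter, with both replicates of one read-out above zero and both of the other below. The difference between the read-outs was not tested. The values are mean log2 ratios of RNA over DNA with their SD over 2 replicates, and the signs depend on the zero point of each table: after centring on the all-element median, 3 of the 11 kept opposite calls (KUUAT0023.fwd, KUUAT0032.rev and KUUAT0038.rev, all with pGAPDH).

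In set 1 KUUAT0111.rev had a promoter value of -0.87 ± 0.0017 and an enhancer value of 0.13 ± 0.0011, the widest gap of the 3 in that set. KUUAT0020.fwd had 0.29 ± 0.013 as a promoter and -0.15 ± 0.028 as an enhancer. KUUAT0028.fwd had 0.26 ± 0.0065 and -0.18 ± 0.095.

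With pMYC in set 2 KUUAT0147.rev had a promoter value of -0.42 ± 0.11 and an enhancer value of 0.37 ± 0.22. KUUAT0120.fwd had 0.13 ± 0.11 as a promoter and -0.30 ± 0.12 as an enhancer.

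With pGAPDH all 6 such members were lower as promoters and higher as enhancers. KUUAT0038.rev had -1.41 ± 0.082 and 0.21 ± 0.072, and KUUAT0032.rev had -1.22 ± 0.061 and 0.14 ± 0.091, the 2 widest gaps. KUUAT0042.fwd had -0.19 ± 0.17 and 0.62 ± 0.24, and KUUAT0023.fwd had -0.24 ± 0.085 and 0.26 ± 0.040. KUUAT0098.rev had -0.13 ± 0.023 and 0.13 ± 0.028, and KUUAT0089.rev had -0.12 ± 0.071 and 0.19 ± 0.19. With pAPOBEC3F no member was called in opposite directions in the authors' deposited tables. Members with opposite calls were thus 3 of 146 in set 1, 2 of 136 with pMYC of set 2, 6 of 152 with pGAPDH and 0 of 146 with pAPOBEC3F. Over all elements of the authors' deposited tables it was 26 of 1525, 21 of 2554, 96 of 3039 and 22 of 2691 in the same order. The difference between members and all elements was not tested.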

How the results depend on the processing

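The zero point moved many counts of calls. Centred calls were counted for the members only, without the share over all elements. Centred on the median of all elements, the promoter counts in set 1 went from 80 higher and 24 lower to 49 and 73, and the enhancer counts from 79 and 9 to 45 and 63. Lower calls went from 34 to 57 for the set 2 pMYC promoter read-out and from 41 to 68 for that of pAPOBEC3F. For the set 2 pMYC enhancer read-out the centred counts were 28 higher and 28 lower. At an adjusted p under 0.01 the pGAPDH enhancer calls were 19 higher and 13 lower, and the lower enhancer calls were 2 with pMYC of set 2 and 3 with pAPOBEC3F. Orientation calls of the enhancer read-out were then 14 in set 1, 4 with pMYC of set 2, 3 with pGAPDH and 0 with pAPOBEC3F (own limma fit, 17 at an unadjusted p under 0.05). Each of the 8 promoter counts of higher or lower calls stayed within 1.5 times at that threshold.

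Leaving out 1 library at a time gave these ranges. Higher promoter calls were 64 to 92 in set 1, 61 to 75 with pMYC of set 2, 48 to 51 with pGAPDH and 54 to 74 with pAPOBEC3F. Lower promoter calls were 18 to 43, 27 to 42, 67 to 73 and 23 to 53 in the same order. Higher enhancer calls were 64 to 90, 33 to 57, 18 to 27 and 13 to 46, and lower ones 3 to 22, 0 to 16, 11 to 23 and 0 to 24. Orientation calls were 39 to 63, 24 to 48, 47 to 57 and 24 to 57 for promoters, and 8 to 32, 0 to 17, 0 to 15 and 0 to 24 for enhancers. With 1 library left out, the lone library is assumed to vary like the others.

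With the replicate number as a block, higher promoter calls were 79, 67, 50 and 66 and higher enhancer calls 82, 48, 35 and 24 in that order. The block took the orientation calls of the set 2 pMYC enhancer read-out from 7 to 4 and moved no other count by over 1.5 times. Crossed pairing in the set 2 pMYC promoter table, chosen after seeing the data, gave 66 higher, 34 lower and 38 orientation calls.

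With 0.1 or 2 reads added or each replicate alone, 18 log2 ratios of named members moved by more than 1 SD and 1450 did not, and no called value changed sign. With 2 replicates, either one alone lies within 1 SD of their mean by construction. Only the settings with other reads added could therefore count a log2 ratio as moved, and the 1450 say nothing about agreement of replicates. Centring, added for these values after seeing the data, turned 18 of 248 called values below zero. In the set 1 promoter table these were KUUAT0010.rev at -0.13, KUUAT0020.fwd at -0.10, KUUAT0028.fwd at -0.13, KUUAT0066.fwd at -0.025, KUUAT0093.fwd at -0.23, KUUAT0107.rev at -0.020 and KUUAT0139.fwd at -0.18. In the set 1 enhancer table they were KUUAT0069.rev at -0.056, KUUAT0089.rev at -0.070, KUUAT0096.rev at -0.11, KUUAT0098.rev at -0.10, KUUAT0111.rev at -0.092 and KUUAT0148.rev at -0.039. With pMYC of set 2 as promoters they were KUUAT0093.fwd at -0.032, KUUAT0096.rev at -0.056, KUUAT0098.rev at -0.10 and KUUAT0120.fwd at -0.11, and with pAPOBEC3F KUUAT0066.fwd at -0.025. The planned count test with edgeR was not run, and the read numbers rest on taking the step of the deposited signal as 1 read. The relation between minimal promoters was not computed, since those tables share libraries.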

Other observations

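The digits in the element names, whose meaning the sources used here do not give, went with the values under pMYC and pAPOBEC3F. Over locus means of the set 1 promoter table, the 29 loci numbered up to 50 had a median log2 fold change of 1.12 in the authors' deposited table, and the 45 loci numbered above 50 had 0.05. A mean of at least 1 was found at 15 and 5 of these loci. In set 2 the medians from the authors' deposited tables were 0.53 and 0.01 with pMYC and 0.84 and -0.17 with pAPOBEC3F. With pGAPDH they were -0.11 and -0.09, with no such gap. In the enhancer read-out the medians were 0.41 and 0.09 in set 1 and 0.06 and 0.02 with pGAPDH. The split at 50 was chosen after the values were seen, and no test was made. Spearman's rho between the number and the locus mean was -0.47 in the set 1 promoter table (74 loci) and 0.01 in the pGAPDH promoter table (77 loci), as a description over loci that share libraries.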
